A study of Rattus norvegicus with 288 samples.

Results

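The 8 genes Pdk4, Cpt1a, Cpt1b, Ucp3, Angptl4, Crot, Acot1 and Hadha were examined as a set of fatty acid oxidation genes and targets of the nuclear receptor PPAR alpha, out of 14218 genes with a symbol of their own on the arrays. The members were chosen by gene symbol, and for each gene and tissue the probe set with the highest mean signal was used. Expression was measured on Affymetrix Rat Genome arrays in 3 tissues (heart, kidney, liver), with 288 arrays in all, from Sprague-Dawley males that were 8 weeks old. Each rat received oxaliplatin (15 mg/kg) or its solvent, dextrose in water (D5W), as an intravenous infusion over 30 min, and 30 min later an oral dose. The oral dose was sunitinib (5 mg/kg), its vehicle water, sorafenib (25 mg/kg), or the sorafenib vehicle, called F68 after the Pluronic F68 it held beside propylene and polyethylene glycols. Oxaliplatin is a platinum drug, and sunitinib and sorafenib are inhibitors of receptor tyrosine and other kinases. Tissues were taken 1, 6 or 24 h after dosing from 4 rats per group, so that 24 groups were available in each tissue. The heart sample was the apex with both ventricles, the kidney was the left one, and the liver pieces came from the left lateral and median lobes. Groups given water or sunitinib were dosed on one day and groups given F68 or sorafenib 2 days later, so each drug was compared with the vehicle of its own day. Replicate numbers below only name an array within its group. A liver array and a kidney array were left out, both of D5W then Sorafenib at 24 h. Each had the markers of the other tissue. The liver array had median kidney markers at 13.09 and liver markers at 5.94. The kidney array had liver markers at 14.54 and kidney markers at 7.55. Member calls that were lost or gained when these arrays were kept are named beside the results, apart from a gain for the change of the sorafenib effect in liver. That gain is given only as a count in the closing section. All groups of a tissue share an estimate of spread, so keeping an array can change calls in comparisons that do not hold it. Such a change says nothing about the rats compared. Heart, kidney and liver marker genes were high in the labelled tissue on the arrays kept, with median levels for heart markers at 14.27 to 14.49 in heart, kidney markers at 12.94 to 13.52 in kidney and liver markers at 14.74 to 14.88 in liver.

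Fatty acids enter mitochondria for beta-oxidation after carnitine palmitoyltransferase 1 has joined them to carnitine, and this step is blocked by malonyl-CoA. PPAR alpha is activated by fatty acids and, paired with the retinoid X receptor, raises transcription of genes for fatty acid transport and oxidation during fasting. Heart burns mainly fatty acids, kidney proximal tubules depend on them as well, and liver oxidises them for its own energy and for ketone bodies.

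PPAR alpha with its partner binds paired copies of the hexamer AGGTCA that are separated by 1 base. The promoter window from 250 bases before to 50 bases after the transcription start was listed by RefSeq (build GRCr8) for 7 of the 8 members. Only Ucp3 held the hexamer on either strand, in 2 copies that began 155 and 50 bases before the start. The stretch is shown because it is the one listed member promoter in which these letters occur; the hexamer is in capitals and the strand is plus, chr1:164227745-164227875 of GRCr8.
Ucp3: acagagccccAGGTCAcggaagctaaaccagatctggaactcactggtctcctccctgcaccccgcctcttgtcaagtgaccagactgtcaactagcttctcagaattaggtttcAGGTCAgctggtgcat
The hexamer occurred in 16.2% of all 33469 listed promoter windows, and 2 or more copies in 1.81%. The paired form with 1 base between the copies occurred in 0.0538% of all windows and in no listed member window. A match describes letters only, and its absence describes only this window.

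Most members differed in level between the tissues, Hadha and Ucp3 least (values are log2 RMA intensities). Cpt1b, the muscle form of carnitine palmitoyltransferase 1, had a mean of 12.19 ± 0.13 (SD, n = 24 vehicle arrays) in heart, 8.74 ± 0.41 in kidney and 6.45 ± 0.15 in liver. Cpt1a, the form found in liver and most other tissues, had a mean of 9.78 ± 0.25 in heart, 11.80 ± 0.18 in kidney and 11.85 ± 0.55 in liver. Heart was thus the tissue with the highest Cpt1b and the lowest Cpt1a, and the order of kidney and liver for Cpt1a was within their spread. Acot1, a cytosolic acyl-CoA thioesterase, ran from 10.59 to 11.71 in kidney, but from 3.88 to 4.50 in heart and from 4.05 to 4.87 in liver. In heart and liver it was therefore below the minimum of 6 on every array and was not tested there. A probe set shared by Acot1 and its neighbour Acot2 had medians of 8.69 in heart and 7.87 in liver, and these levels cannot be assigned to either gene.

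Hadha, the alpha subunit of the mitochondrial trifunctional protein, which carries out later steps of beta-oxidation, was nearly level across tissues, with vehicle means of 12.45 ± 0.16 in heart, 12.34 ± 0.07 in kidney and 12.06 ± 0.11 in liver. Crot, the peroxisomal carnitine octanoyltransferase that prepares shortened chains for export from peroxisomes, had means of 8.39 ± 0.14 in heart, 11.21 ± 0.14 in kidney and 11.87 ± 0.75 in liver. Pdk4, a kinase that switches off pyruvate dehydrogenase and so spares glucose, had means of 10.69 ± 0.63, 8.33 ± 0.68 and 10.38 ± 0.79 in heart, kidney and liver. Angptl4, a secreted inhibitor of lipoprotein lipase, had means of 5.86 ± 0.66 in heart, 7.45 ± 0.59 in kidney and 10.996 ± 0.65 in liver, and was over 6 on 42 of 96 heart arrays. Ucp3, an uncoupling protein of muscle and brown fat mitochondria, was close to one level in the 3 tissues, at 7.90 ± 0.26, 7.90 ± 0.18 and 7.77 ± 0.11. How much of this signal was background in each tissue was not tested. Array medians were 6.66 in heart, 7.35 in kidney and 6.69 in liver, so levels were compared between tissues without a test, and levels of different genes were not compared.

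**Figure D1:**
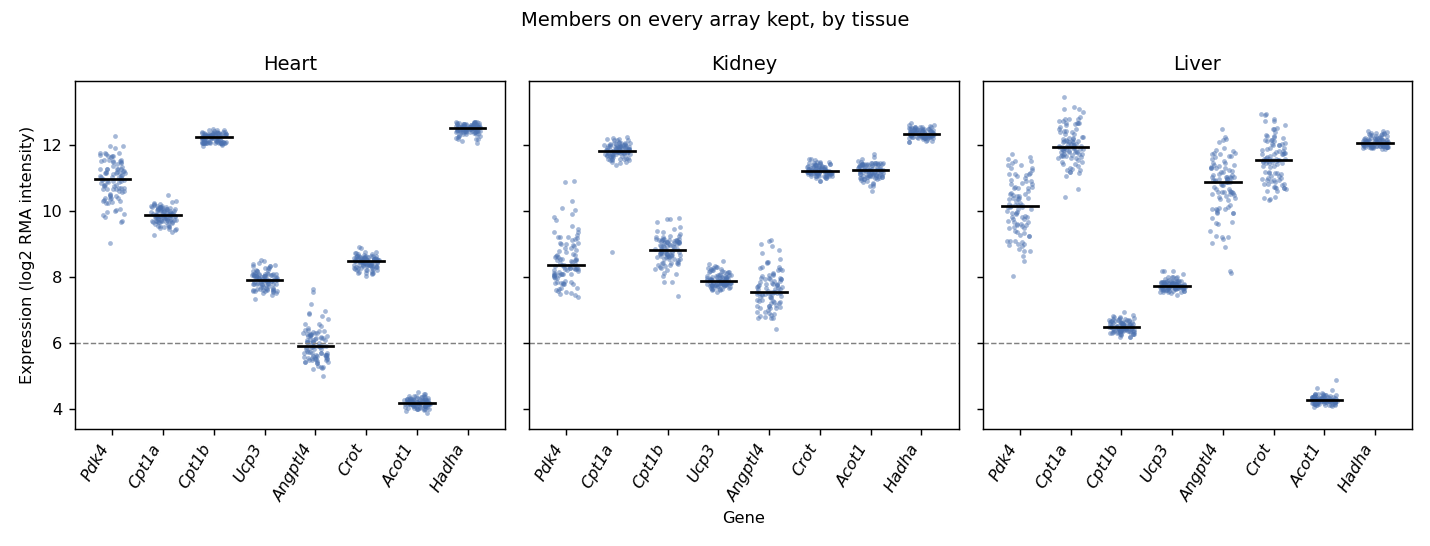
Log2 RMA intensity (vertical axis) of the 8 members on every array kept in heart (96), kidney (95) and liver (95); each point is 1 rat, the black bar is the median and the dashed line is the minimum of 6. Cpt1b was high in heart, Acot1 in kidney only, and Pdk4, Angptl4, liver Cpt1a and liver Crot were spread more widely than Hadha.

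The members differed in how much they varied between rats treated alike. Pdk4 had within-group SDs of 0.54, 0.67 and 0.65 in the order heart, kidney, liver, larger than in 99.4%, 99.3% and 99.1% of all genes tested. Angptl4 had within-group SDs of 0.44, 0.56 and 0.64, larger than in 98.9%, 99.0% and 99.1% of genes. Hadha was the opposite, with SDs of 0.09, 0.07 and 0.10, which were larger than in only 22.5%, 4.79% and 11.6% of genes. The other members lay between or changed with the tissue, such as Cpt1b, whose SD was larger than in 17.5% of genes in heart, 97.7% in kidney and 38.5% in liver. The median SD of all tested genes was 0.115, 0.130 and 0.140 in the same order. Differences of Pdk4 and Angptl4 between groups of 4 therefore had wide intervals, and small shifts of Hadha could be called.

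Some pairs of members moved together between rats treated alike, but not in every tissue. Within groups, Pdk4 and Angptl4 correlated across arrays with r = 0.62 in heart (n = 96 arrays), r = 0.76 in kidney (n = 95) and r = 0.03 in liver (n = 95). Cpt1b and Hadha correlated with r = 0.78 in heart, and Cpt1a and Hadha with r = 0.58 in liver. These values are descriptions, since genes of 1 array share its RNA and labelling.

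In kidney the variable members moved with genes of fat tissue. A brown adipocyte list (Ucp1, Cidea, Dio2 and Elovl3, of which Elovl3 was not over 6) had a median level per array from 5.67 to 9.05, and a white adipocyte list of 6 genes from 6.64 to 9.52. Within groups, the brown adipocyte level correlated with Pdk4 (r = 0.78), Ucp3 (r = 0.68), Cpt1b (r = 0.66) and Angptl4 (r = 0.57; n = 95 arrays each). For Cpt1a, Crot and Hadha the same correlation lay between 0.02 and 0.11, and for Acot1 it was -0.30. In heart and liver the brown adipocyte level stayed at or below 6.00 and correlated with Pdk4 at r = 0.09 and r = -0.05. How much fat tissue the kidney samples held, and how it bears on these genes, was not tested; in bulk tissue more cells of a type and more RNA per cell cannot be told apart.

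**Figure D2:**
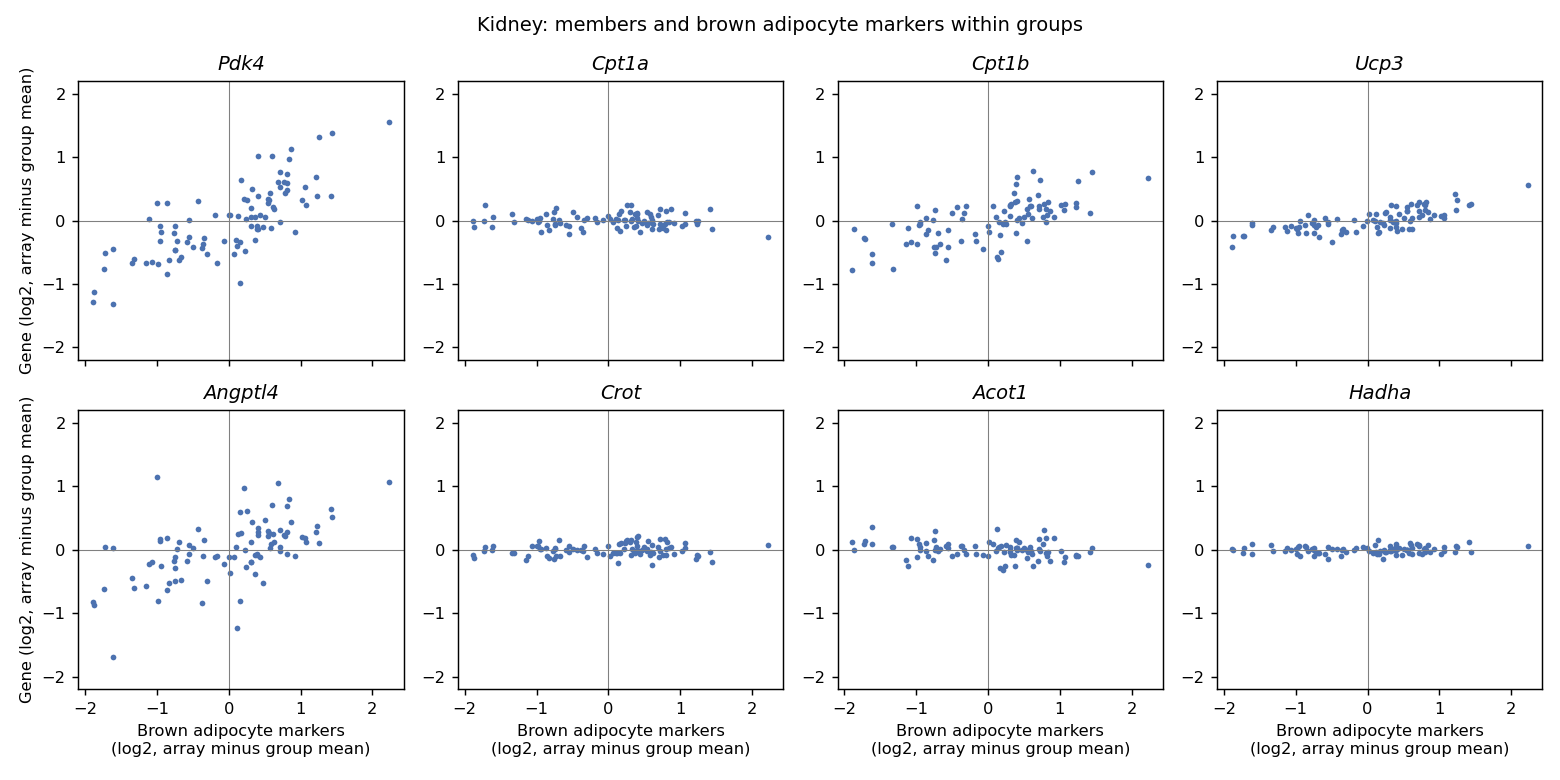
Each panel plots 1 member in kidney (vertical axis, log2 intensity minus the mean of its group) against the median of the brown adipocyte markers (horizontal axis, likewise minus its group mean); each point is 1 of 94 arrays, the array with the deviating median being left out. Pdk4, Cpt1b, Ucp3 and Angptl4 rose along the axis, Acot1 fell slightly (r = -0.28), and Cpt1a, Crot and Hadha lay nearly flat.

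An array in the kidney set stood apart, replicate 1 of Oxaliplatin then Sunitinib at 1 h, with an array median of 7.81 against 7.32 to 7.40 on the 94 others. Cpt1a was 8.74 on this array and 11.48 to 11.74 on the 3 others of its group. The difference in Cpt1a between sunitinib and water after oxaliplatin at 1 h was -0.74 with all 4 arrays and -0.02 without this one. The correlations of the brown adipocyte level with Pdk4, Ucp3 and Cpt1b were 0.77, 0.72 and 0.66 without it. No member was called in that comparison when all arrays were used, but Cpt1a was called when replicate 2, 3 or 4 of the same group was left out instead (-1.03 to -0.94), and Hadha when replicate 2 or 4 was (0.16).

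In the comparisons of treatments within heart, kidney and liver, 20 of 330 member differences were called, meaning an adjusted p (limma with Benjamini-Hochberg adjustment over all genes tested in the tissue) under 0.05. Of these, 14 were higher and 6 lower with treatment. Over the same comparisons 5.66% of all gene differences were called. Heart gave 11 of the calls in 105 (8.62% over all genes), kidney 1 in 120 (2.59%) and liver 8 in 105 (6.03%), and the called differences ran in size from 0.16 to 1.45 on the log2 scale.

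**Figure D3:**
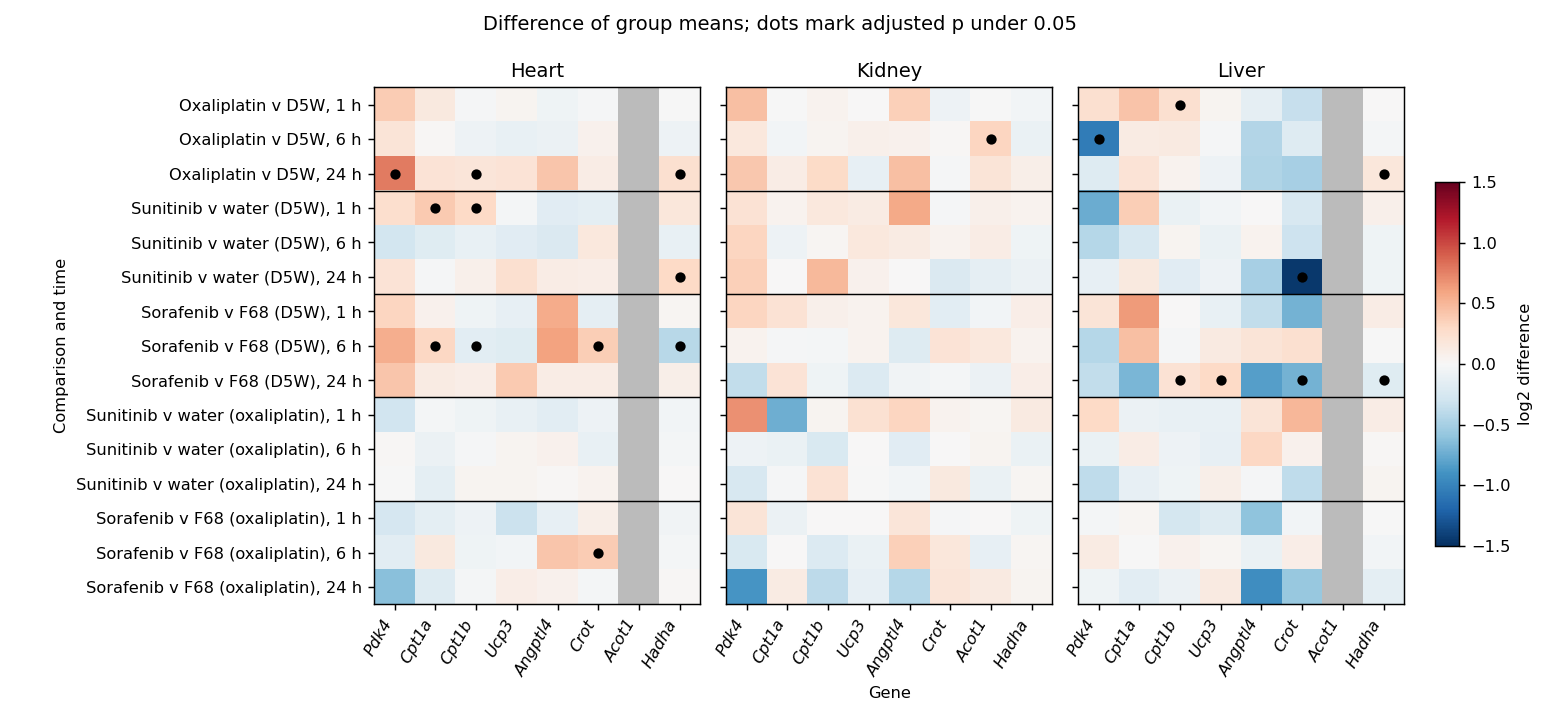
Log2 difference of group means (colour, -1.5 to 1.5) for each member (columns) and each comparison and time (lines) in heart, kidney and liver; black dots mark adjusted p under 0.05 and grey marks Acot1, which was not tested in heart and liver. Of the dotted cells, liver Crot with sunitinib at 24 h (-1.45) and liver Pdk4 with oxaliplatin at 6 h (-1.05) differed most, and kidney had a single dot, Acot1.

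In heart the member calls came in comparisons where 7.57% to 41.9% of all genes were called. With oxaliplatin, 0 of 7 members were called at 1 h and at 6 h, where 1.23% and 0.866% of all tested genes were called, and 3 of 7 at 24 h, where 19.2% were. With sunitinib after D5W, 2 of 7 were called at 1 h (10% of all genes), 0 at 6 h (0%) and 1 at 24 h (25.4%). With sorafenib after D5W, 0 of 7 were called at 1 h (12.2%), 4 at 6 h (41.9%) and 0 at 24 h (7.05%). The 4 members called at 6 h stood beside a background in which more than 4 of 10 genes were called. After oxaliplatin, sunitinib gave 0 calls among 7 members at 1, 6 and 24 h (0%, 0.00884% and 0% of all genes), and sorafenib gave 0, 1 and 0 (2.15%, 7.57% and 1.72%). In the heart comparisons with no call, 2 member differences had an unadjusted p under 0.05, both of Ucp3 with sorafenib.

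In kidney 1 member was called, Acot1. With oxaliplatin, 0 of 8 members were called at 1 h (9.41% of all genes), 1 at 6 h (20.6%) and 0 at 24 h (7.8%). Sunitinib after D5W gave 0 of 8 at each time (0.0244%, 0% and 0%), as did sorafenib after D5W (0%, 0.0731% and 0.203%). After oxaliplatin, sunitinib gave 0 (0.244%, 0% and 0%) and sorafenib gave 0 (0.00812%, 0.544% and 0%). Few genes of any kind were called with the oral drugs in kidney, and 7 of 96 member differences had an unadjusted p under 0.05 by limma. With oxaliplatin 0 members had one at 1 h and 2 at 24 h, Acot1 and Hadha.

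In liver the calls were scattered over genes and times. With oxaliplatin, 1 of 7 members was called at 1 h (3.46% of all genes), 1 at 6 h (10.4%) and 1 at 24 h (6.42%), a different gene each time. Sunitinib after D5W gave 0 of 7 at 1 h and 6 h (0% each) and 1 at 24 h (0.964%). Sorafenib after D5W gave 0 at 1 h and 6 h (0.0689% and 0.0344%) and 4 at 24 h, where 67.3% of all genes were called. After oxaliplatin, sunitinib gave 0 of 7 at each time (0%) and sorafenib gave 0 (0.189%, 0.207% and 1.38%). In those 6 comparisons 4 member differences had an unadjusted p under 0.05 by limma, all with sorafenib, and in the comparisons after D5W without a call 2 did, Cpt1a and Crot with sorafenib at 1 h.

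Pdk4 was called with oxaliplatin in opposite directions in heart and liver, at different times. In heart at 24 h, Pdk4 ran from 10.76 through a median of 11.13 to 12.26 in the 8 oxaliplatin rats without an oral drug, and from 9.03 through 10.48 to 11.27 in the 8 D5W rats. The groups overlapped, and only the higher oxaliplatin values lay above every D5W value. The difference was 0.78 ± 0.26 (SE; 1.72-fold higher, adjusted p = 0.0266, limma). It was 0.51 in rats given water and 1.05 in rats given F68, and neither was called alone. The call was lost without any 1 of 5 arrays, namely D5W then water replicates 1 and 4, D5W then F68 replicate 3, Oxaliplatin then water replicate 3 and Oxaliplatin then F68 replicate 2, with values of 0.58 to 0.74 and adjusted p of 0.0516 to 0.116.

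In liver at 6 h, Pdk4 was lower with oxaliplatin. The 8 oxaliplatin rats without an oral drug ran from 8.03 through a median of 9.28 to 9.98, and the 8 D5W rats from 9.22 through 10.17 to 11.12, so that the groups overlapped in part. The fall was -1.05 ± 0.32 (SE; 2.07-fold lower, adjusted p = 0.0215, limma), and it was of like size in rats given water (-1.07) and in rats given F68 (-1.03), where neither was called alone. Among rats that also received an oral drug, the mean was 9.14 for Oxaliplatin then Sunitinib against 9.89 for D5W then Sunitinib, and 9.20 for Oxaliplatin then Sorafenib against 9.67 for D5W then Sorafenib. The call was lost with both left-out arrays kept (adjusted p = 0.0501) and without any 1 of 6 arrays, namely D5W then F68 replicates 1 and 4, Oxaliplatin then F68 replicates 1 and 4, D5W then water replicate 2 and Oxaliplatin then water replicate 3, with values of -0.97 to -0.88 and adjusted p up to 0.0704. At 1 h and 24 h the liver differences were 0.24 and -0.19, and in kidney Pdk4 differed by 0.45, 0.16 and 0.40 at 1, 6 and 24 h, none of them called.

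Only some of the other genes known to respond to glucocorticoids and fasting were called beside Pdk4 in these comparisons, and in liver the called one went the other way. In heart at 24 h, 2 of 6 tested genes of a glucocorticoid- and fasting-induced list rose with oxaliplatin, Ddit4 and Tsc22d3, where 19.2% of all genes were called. In liver at 6 h, 1 of 9 rose, Fkbp5, where 10.4% of all genes were called. At 1 h, where Pdk4 was not called in any tissue, 5 of 6 rose in heart (1.23% of all genes called), 5 of 8 in kidney (9.41%) and 3 of 9 in liver (3.46%).

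**Figure D4:**
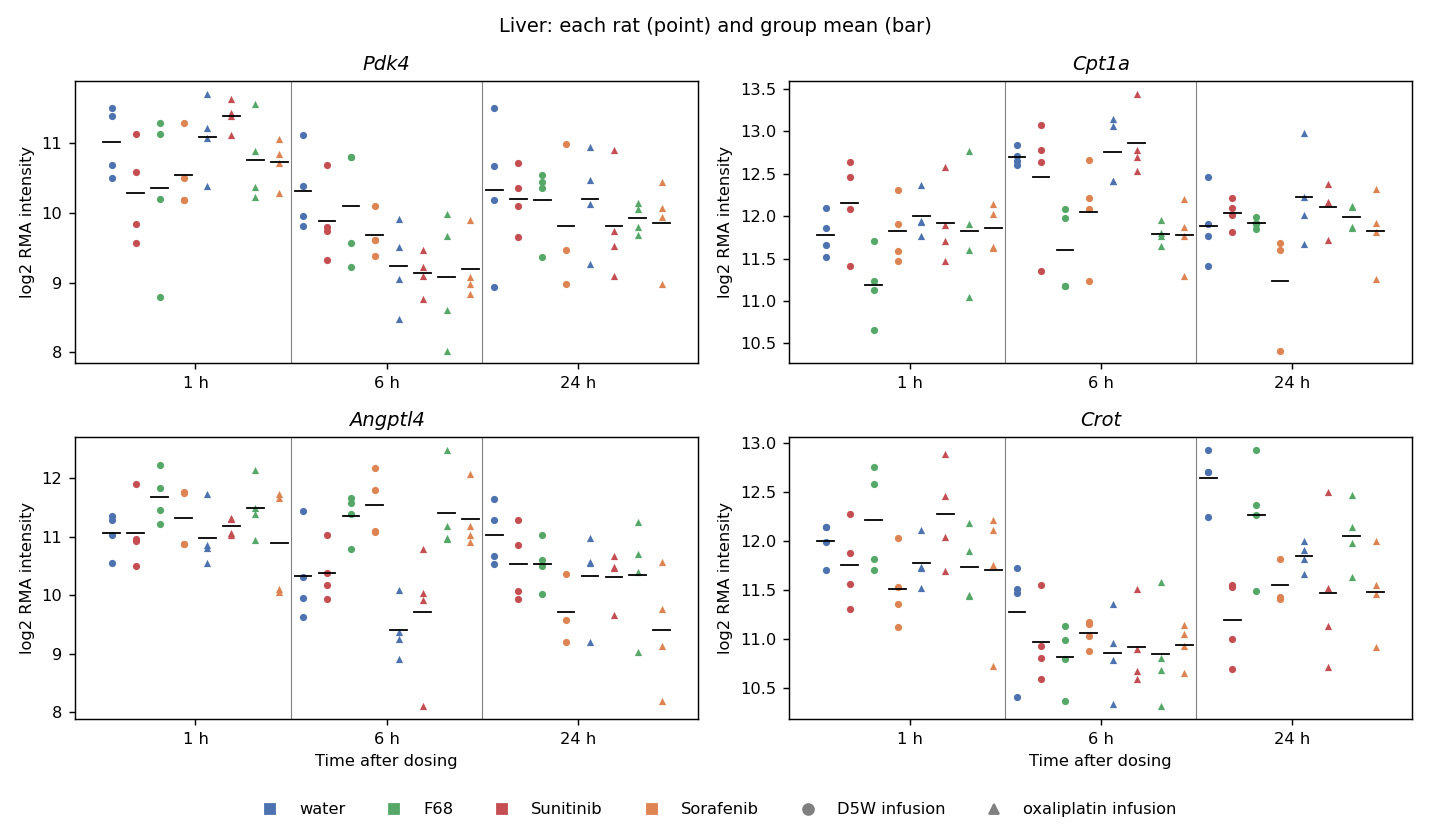
Liver levels (vertical axes, log2 RMA intensity) of Pdk4, Cpt1a, Angptl4 and Crot in the 8 treatments at 1, 6 and 24 h (horizontal axis); each point is 1 rat, bars are group means, colour gives the oral dose and shape the infusion. Pdk4 was lower at 6 h in the oxaliplatin groups (triangles), and Cpt1a and Angptl4 at 6 h were split by the oral vehicle.

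Cpt1a and Cpt1b, the paralogs that set the rate of mitochondrial fatty acid entry, were both called in heart with sunitinib after D5W at 1 h. Cpt1a was 9.51, 9.68, 9.27 and 9.47 in the 4 water rats and 9.70, 10.06, 9.77 and 9.95 in the 4 sunitinib rats, with no overlap. It rose by 0.39 ± 0.11 (SE; 1.31-fold, adjusted p = 0.0197, limma), and the call was lost without D5W then water replicate 3 or without D5W then Sunitinib replicate 2 or 4 (0.32 to 0.36, adjusted p = 0.0622 to 0.104). Cpt1b was 12.10, 12.04, 12.04 and 12.09 with water and 12.43, 12.34, 12.29 and 12.39 with sunitinib. Its levels did not overlap either, and it rose by 0.29 ± 0.06 (SE; 1.23-fold, adjusted p = 0.00103, limma), with no change of the call when any 1 array was left out. The D5W then water group at 1 h was the lowest of the 24 heart groups for Cpt1a, with a mean of 9.48. After oxaliplatin the same comparison gave -0.06 for Cpt1b at 1 h, which was not called. No member had an unadjusted p under 0.05 by limma there.

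With sorafenib after D5W in heart at 6 h, the paralogs went in opposite directions. Cpt1a was 9.45, 9.65, 9.89 and 9.54 with F68 and 9.92, 10.06, 9.83 and 9.99 with sorafenib, with the lowest sorafenib value under the highest F68 value. It rose by 0.32 ± 0.11 (SE; adjusted p = 0.0204, limma), but a second, dimmer probe set of Cpt1a gave -0.05 and the mean of both 0.13, which was not called. The rise was also not called without D5W then F68 replicate 1 or 4 or D5W then Sorafenib replicate 2 (0.25 to 0.29, adjusted p = 0.0576 to 0.0925). Cpt1b was 12.24, 12.32, 12.25 and 12.43 with F68 and 12.05, 12.22, 12.19 and 12.13 with sorafenib, without overlap. It fell by 0.16 on the log2 scale (adjusted p = 0.0281, limma), a call lost without D5W then F68 replicate 2 or 4 or D5W then Sorafenib replicate 1 or 4 (-0.15 to -0.12).

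Cpt1b also rose with oxaliplatin in heart at 24 h, by 0.19 ± 0.04 (SE; adjusted p = 7.64e-04, limma). The 8 oxaliplatin rats ran from 12.27 through 12.31 to 12.45 and the 8 D5W rats from 12.04 through 12.11 to 12.35. Most oxaliplatin rats lay above most D5W rats, but the ranges overlapped. The difference was 0.17 in rats given water, where it was called, and 0.21 in rats given F68, where it was not.

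In liver, where Cpt1b was dim, it was called with oxaliplatin at 1 h, from 6.33 to 6.65 in 8 D5W rats and from 6.58 to 6.95 in 8 oxaliplatin rats. The difference was 0.24 ± 0.06 (SE; adjusted p = 0.0177, limma). It was lost without Oxaliplatin then F68 replicate 1, Oxaliplatin then water replicate 4 or D5W then F68 replicate 3, with values of 0.21 to 0.22. The call was also lost with both left-out arrays kept, where the value stayed 0.24 (adjusted p = 0.436). Within rats given water and within rats given F68 it was 0.25 and 0.23, neither of them called.

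The 3 smallest adjusted p among the 20 calls belonged to Hadha in heart, where its shifts were small. With sorafenib after D5W at 6 h, Hadha was 12.48, 12.67, 12.63 and 12.63 with F68 and 12.04, 12.32, 12.24 and 12.17 with sorafenib. The groups did not overlap, and the fall was -0.41 ± 0.06 (SE; adjusted p = 2.06e-07, limma). With sunitinib after D5W at 24 h, Hadha was 12.11, 12.20, 12.18 and 12.17 with water and 12.59, 12.48, 12.52 and 12.27 with sunitinib, again without overlap. It rose by 0.30 ± 0.06 (SE; adjusted p = 1.54e-04, limma).

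With oxaliplatin at 24 h, Hadha in heart ran from 12.47 through 12.55 to 12.64 in 8 oxaliplatin rats and from 12.11 through 12.28 to 12.67 in 8 D5W rats. It rose by 0.24 ± 0.05 (SE; adjusted p = 5.59e-05, limma). This difference was 0.37 in rats given water, where the groups did not overlap, and 0.10 in rats given F68, where it was not called. The sunitinib and oxaliplatin comparisons at 24 h share the D5W then water rats, which were the lowest group for Hadha, with a mean of 12.16. None of these calls was lost when any 1 array was left out. A pair of dimmer Hadha probe sets gave 0.00 and 0.01 with oxaliplatin at 24 h, -0.06 and 0.01 with sunitinib at 24 h and -0.30 and -0.05 with sorafenib at 6 h. Their heart medians were 5.08 and 5.92, under the minimum of 6.

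The low Hadha groups in heart were also those with the largest 3′ excess of the Actb control probe sets, a measure of RNA integrity and labelling. The 3′ minus 5′ difference of Actb was highest in D5W then water at 24 h, with a group median of 0.75. It was next highest in D5W then Sorafenib at 6 h, at 0.68. In the other 22 groups it lay between 0.24 and 0.47, with 0.46 in D5W then water and 0.33 in D5W then Sunitinib at 1 h, the groups between which Cpt1b and Cpt1a were called. Within groups, Hadha and Cpt1b each correlated with this measure at r = -0.37 (n = 96 arrays), against r = 0.18 for Cpt1a. The part of RNA quality in the heart calls was not tested.

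**Figure D5:**
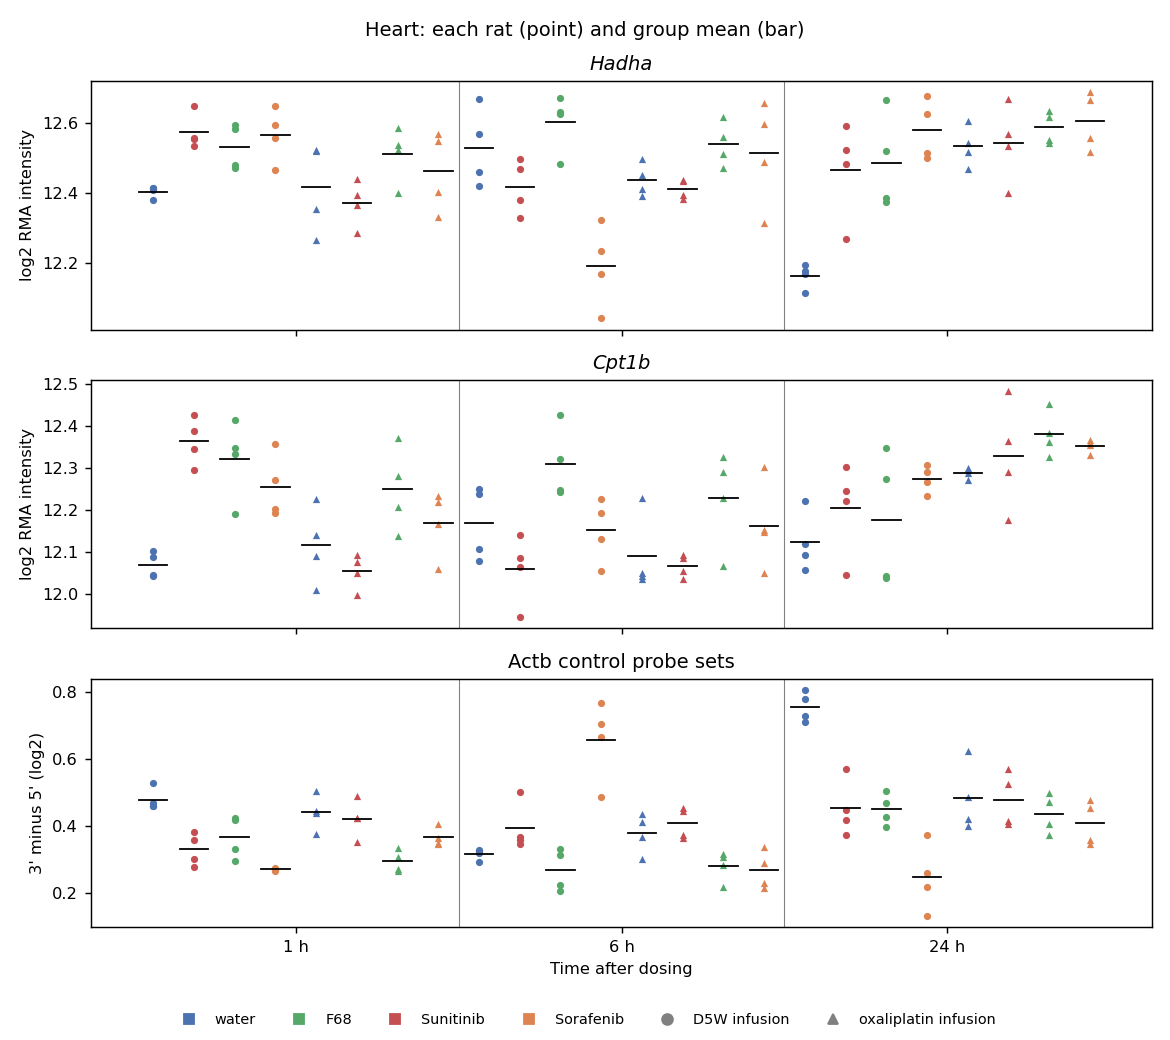
Heart levels of Hadha and Cpt1b (log2 RMA intensity) and the 3′ minus 5′ difference of the Actb control probe sets (log2) in the 8 treatments at 1, 6 and 24 h (horizontal axis); each point is 1 rat, bars are group means, colour gives the oral dose and shape the infusion. The groups lowest for Hadha, D5W then water at 24 h and D5W then Sorafenib at 6 h, were the highest for Actb.

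The change of an oral drug's effect with oxaliplatin was tested over the 3 times together. In heart, 2 of 7 members were called for sunitinib (17.2% of all genes) and 1 of 7 for sorafenib (18.5%). Cpt1b (adjusted p = 0.00938, F test by limma) rose with sunitinib after D5W at 1 h but not after oxaliplatin, a change of -0.36 ± 0.09 (SE). Hadha (adjusted p = 0.0152) rose with sunitinib at 24 h after D5W and differed by 0.01 after oxaliplatin, a change of -0.29 ± 0.09 (SE). For sorafenib, Hadha (adjusted p = 0.00621) fell at 6 h after D5W and differed by -0.03 after oxaliplatin, a change of 0.39 ± 0.09 (SE). Both Hadha changes involve a D5W group with a large Actb 3′ excess, D5W then water at 24 h or D5W then Sorafenib at 6 h. In kidney 0 of 8 members were called for sunitinib (0%) and for sorafenib (0.0162%), and in liver 0 of 7 (0% and 22.2%), with 1, 0, 1 and 1 members at an unadjusted p under 0.05 by limma.

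Hadha in liver was called with oxaliplatin at 24 h, from 12.00 through 12.12 to 12.28 in 8 D5W rats to 12.19 through 12.33 to 12.36 in 8 oxaliplatin rats. The difference was 0.17 ± 0.05 (SE; adjusted p = 0.0347, limma), 0.23 in rats given water and 0.10 in rats given F68. The call was lost without any 1 of 11 of the 16 arrays, namely D5W then water replicates 1, 2 and 3, D5W then F68 replicates 1, 3 and 4, Oxaliplatin then water replicates 3 and 4 and Oxaliplatin then F68 replicates 2, 3 and 4, with values of 0.15 to 0.17. It was also lost with both left-out arrays kept, where the value stayed 0.17 (adjusted p = 0.0543).

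Crot showed the largest called difference between a drug and its vehicle. In liver at 24 h it was 12.70, 12.71, 12.93 and 12.25 in the 4 rats given D5W then water and 11.001, 10.70, 11.55 and 11.54 in the 4 given D5W then Sunitinib. Every sunitinib value lay under every water value. Crot fell by 1.45 on the log2 scale (SE 0.30, 2.73-fold lower, adjusted p = 0.0150, limma), and a second probe set fell by 1.67. The dimmest probe set of the gene, with a liver median of 5.63, differed by 0.02. The water group was the highest of the 24 liver groups for Crot, with a mean of 12.65. After oxaliplatin sunitinib differed from water by -0.38, which was not called, and the change of the effect was not called either. The call was lost without D5W then water replicate 1 (-1.43, adjusted p = 0.0692) or D5W then Sunitinib replicate 2 (-1.29, adjusted p = 0.113).

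In heart at 6 h, Crot rose with sorafenib in both infusion arms. After D5W it was 8.56, 8.07, 8.28 and 8.29 with F68 and 8.68, 8.63, 8.52 and 8.87 with sorafenib, with a single sorafenib value under the highest F68 value. After oxaliplatin it was 8.15, 8.28, 8.37 and 8.25 with F68 and 8.73, 8.50, 8.48 and 8.89 with sorafenib, with no overlap. The rises were 0.37 ± 0.09 (SE; adjusted p = 9.59e-04, limma) and 0.38 ± 0.09 (SE; adjusted p = 0.00750). These arms have no rats in common, but each call was lost when all 3 Crot probe sets were averaged (0.13 and 0.16). The dimmest of the 3 stayed under the minimum of 6 on every heart array (highest 5.51). The remaining one had a heart median of 7.48 and correlated with the one used at r = 0.38 (n = 96 arrays). How far each lowered the average was not tested. The call after oxaliplatin was also lost without Oxaliplatin then F68 replicate 1 (0.35) or Oxaliplatin then Sorafenib replicate 4 (0.30).

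In liver with sorafenib after D5W at 24 h, 4 members were called on 3 sorafenib rats, because 1 array of that group was left out. Ucp3 was 7.88, 7.86, 7.83 and 7.91 with F68 and 8.17, 8.17 and 8.18 with sorafenib, higher by 0.30 ± 0.08 (SE; adjusted p = 7.53e-04, limma). Cpt1b was higher by 0.22 and Crot and Hadha were lower, with differences of -0.71 and -0.18. Low signals also stood higher with sorafenib. Acot1, below 6 on every liver array, differed by 0.32. The median of heart markers was 5.73 in the sorafenib group against 5.37 with F68, and that of kidney markers 6.55 against 6.08. Whether Ucp3 shared in this was not tested. The spread of values over all probe sets was narrower in this group, with a median interquartile range of 2.64 against 2.96 to 3.32 in the other liver groups, and the median of all genes differed by -0.24 and that of the members by -0.37. With both left-out arrays kept, the 4 calls held and Cpt1a (-0.71) and Angptl4 (-1.81) were called as well. The comparison then holds the array with kidney markers. When the arrays were quantile normalized again within liver, only Ucp3 was called, and the Hadha difference turned to 0.09. The calls of the 3 others were each lost on leaving out single arrays: Cpt1b without D5W then F68 replicate 1, 2 or 3 or D5W then Sorafenib replicate 3 (0.11 to 0.22), Crot without D5W then F68 replicate 2, 3 or 4 or D5W then Sorafenib replicate 2 or 3 (-0.71 to -0.49), and Hadha without D5W then F68 replicate 2 or 3 or D5W then Sorafenib replicate 3 (-0.17 to -0.10).

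Acot1 in kidney rose with oxaliplatin at 6 h. The 8 oxaliplatin rats ran from 11.0005 through 11.33 to 11.56 and the 8 D5W rats from 10.59 through 10.99 to 11.31. The ranges overlapped, and the difference was 0.32 ± 0.08 (SE; 1.25-fold, adjusted p = 8.36e-04, limma). It was 0.24 in rats given water, where it was not called, and 0.40 in rats given F68, where it was. No single array of the comparison decided the oxaliplatin call. It was lost when the kidney array left out was kept (the value stayed 0.32, adjusted p = 0.625, limma). That array had liver markers, is not in this comparison and enters it only through the shared spread. With it kept, Acot1 was also called with sorafenib after D5W at 24 h (-1.63), a comparison that holds that array.

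The thioesterase relatives of Acot1 moved with it in that comparison. Acot3 rose by 0.74 (adjusted p = 9.43e-04, limma), Acot4 by 0.55 (adjusted p = 9.28e-06) and Acot2 by 0.20 (adjusted p = 0.00719). These genes have closely similar sequences, and cross-hybridization between their probe sets was not tested. Plin2, a coat protein of lipid droplets and a target of PPAR alpha, rose by 0.36 (adjusted p = 4.46e-07). Of 13 tested other PPAR alpha targets, these 4 were higher and 0 lower, where 20.6% of all genes were called.

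Angptl4 was called in none of the comparisons of drugs with their vehicles. Its largest differences were in liver at 24 h with sorafenib, at -0.82 ± 0.48 (SE) after D5W and -0.93 ± 0.44 (SE) after oxaliplatin, with adjusted p of 0.122 and 0.231 by limma. With oxaliplatin at 24 h it differed by 0.41 in heart, 0.45 in kidney and -0.45 in liver, with standard errors of 0.21, 0.28 and 0.31.

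In liver the largest differences of Angptl4 and Cpt1a lay between the vehicles. Rats given F68 were compared with rats given water over the 3 times together, and 3 of 7 members were called in heart (33.2% of all genes), 1 of 8 in kidney (24.4%) and 2 of 7 in liver (6.7%). In liver at 6 h, Cpt1a ran from 11.17 through 11.78 to 12.09 in 8 F68 rats and from 12.41 through 12.68 to 13.15 in 8 water rats, and every F68 rat lay under every water rat. The difference was -1.03 ± 0.21 (SE; F test adjusted p = 0.00218, limma), against -0.38 at 1 h and -0.10 at 24 h. Angptl4 went the other way, from 8.91 through 9.79 to 11.43 with water to 10.78 through 11.28 to 12.48 with F68. It was higher by 1.5 ± 0.31 (SE; F test adjusted p = 0.00268), against 0.56 at 1 h and -0.24 at 24 h. Oxaliplatin rats enter this difference. The highest F68 value, 12.48, was of an Oxaliplatin then F68 rat. Oxaliplatin then water at 6 h had the lowest mean of all liver groups, 9.40.

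The rats given an oral drug at 6 h lay beside the vehicle rats of their own dosing day. Liver Cpt1a had means of 12.46 and 12.86 in the sunitinib groups, dosed with the water groups, and 12.05 and 11.78 in the sorafenib groups, dosed with the F68 groups. Liver Angptl4 had means of 10.38 and 9.71 with sunitinib and 11.54 and 11.30 with sorafenib. Oral vehicle and dosing day cannot be told apart in these groups.

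The other members called between the vehicles moved less. In heart, Cpt1b was higher with F68 by 0.19 at 1 h and 0.14 at 6 h (F test adjusted p = 7.34e-05, limma). Hadha was higher by 0.19 at 24 h (adjusted p = 4.52e-04), and Angptl4 was lower by a difference of -0.71 at 6 h (adjusted p = 0.00563). In kidney, Acot1 differed by -0.13, -0.20 and -0.21 at 1, 6 and 24 h (adjusted p = 0.0102), a call lost with the left-out kidney array kept, when 0 of 8 members were called.

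Between 1 h and 6 h, members changed in vehicle rats without any drug. The 8 rats given D5W then water or F68 were compared, and 1 of 7 members was called in heart (36.8% of all genes), 0 of 8 in kidney (1.98%; Acot1 alone had an unadjusted p under 0.05 by limma) and 2 of 7 in liver (11.3%). Liver Crot ran from 11.71 through 12.07 to 12.76 at 1 h and from 10.37 through 11.06 to 11.73 at 6 h, a difference of -1.05 ± 0.21 (SE; adjusted p = 4.88e-04, limma). Liver Cpt1a rose by 0.67 ± 0.21 (SE; adjusted p = 0.0268), a call lost without 1 of 4 arrays, namely D5W then F68 replicate 2 at 1 h, D5W then water replicate 2 at 1 h and D5W then F68 replicates 2 and 3 at 6 h (0.58 to 0.62). Heart Ucp3 fell by 0.32 on the log2 scale (adjusted p = 0.00544). The 24 h arrays carried another array code than the 1 h and 6 h arrays of the same tissue, so 24 h was not compared with the earlier times.

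The wider pathway was described by 8 lists of further genes (uptake and activation, carnitine system, mitochondrial and peroxisomal beta-oxidation, ketone body synthesis, omega-oxidation, other PPAR alpha targets, and regulators). In heart with oxaliplatin at 24 h, 14 of 55 tested genes rose and 2 fell (19.2% of all genes called), with a median difference of 0.09 beside 0.03 over all genes. The carnitine system had 3 of 4 genes higher, Cpt2, Crat and Slc25a20. The largest changes were of Ppargc1b, a coactivator of PPAR alpha, at -0.76, of the fatty acid transporter Slc27a1 at 0.45, of Cyp4b1 at 0.32 and of Plin2 at 0.30. Ppargc1b differed by -1.45 in rats given water and by -0.08 in rats given F68.

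In heart with sorafenib after D5W at 6 h, 11 of 55 pathway genes rose and 11 fell (41.9% of all genes called), with a median of 0.06 beside -0.03 over all genes. Ppargc1b rose by 1.7, and Acacb, which makes malonyl-CoA, the short-chain acyl-CoA dehydrogenase Acads and the uncoupling protein Ucp2 fell, with differences of -0.73, -0.72 and -0.67. With sunitinib after D5W at 24 h, 8 rose and 3 fell (25.4%), led by Ppargc1b at -1.66, Acads at 0.55, Slc27a1 at 0.50 and Plin2 at 0.49. Ppargc1b was thus high in the same D5W then water (24 h) and D5W then Sorafenib (6 h) groups in which Hadha was low and the Actb difference large. With sunitinib after D5W at 1 h, 6 rose and 2 fell (10%), led by Acacb at 0.62, the coactivator Ppargc1a at 0.61, the fatty acid carrier Cd36 at 0.47 and Acsl5 at -0.27.

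In kidney with oxaliplatin at 24 h, 8 of 60 pathway genes rose and 1 fell (7.8% of all genes called), with a median of 0.03 beside 0.01 over all genes. They were led by Cyp4a1, an omega-hydroxylase of fatty acids, at 0.57, and by Eci1, which handles unsaturated chains, at 0.33, with Hsd17b4 at -0.31 and Slc25a20 at 0.28. At 6 h 5 rose and 7 fell (20.6%), with a median of -0.05 beside 0.01, and among those that fell Bdh1, an enzyme of ketone body metabolism, differed most, by -0.35.

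In liver with oxaliplatin at 24 h, 7 of 62 pathway genes rose and 6 fell (6.42% of all genes called), with a median of 0.06 beside -0.02 over all genes. Me1, the malic enzyme that supplies NADPH, differed by -1.0 and the hormone Fgf21 by -0.86, while Eci1 and the carnitine importer Slc22a5 each rose by 0.64. At 6 h, when Pdk4 was lower, 0 rose and 4 fell (10.4%), Acacb (-0.63), Acsl5 (-0.34), Pdk2 (-0.30) and Acsl1 (-0.15). With sorafenib after D5W at 24 h, 8 rose and 22 fell (67.3%), and the median of the lists equalled that of all genes, -0.24.

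The genes whose 24 group means followed a member most closely were named for Pdk4, Cpt1a, Angptl4 and Hadha. In liver, Angptl4 was followed by Plin2 (r = 0.91), Pygl and Acot13, Hadha by Eci1 (r = 0.90), Tbl1xr1 and Ttc36, Pdk4 by Slc28a2 (r = 0.90), Net1 and Efna1, and Cpt1a by Csnk1g2 (r = 0.86), C5h1orf50 and Cpn1. In heart, Cpt1a was followed by Arl14ep (r = 0.88), Fbxo3 and the carnitine importer Slc22a5, and Angptl4 by Foxk1 (r = 0.75), Hilpda and Uchl3. Pdk4 in heart was followed by Dnajb4 (r = 0.77), Gpn2 and Ifrd1, and Hadha by Poldip2 (r = 0.92), Atp11b and Bcat2. In kidney, Pdk4 was followed by Mepce (r = 0.87), Cggbp1 and Phc2, Cpt1a by Fbxo3 (r = 0.91), Ufl1 and Cdkn2aipnl, Angptl4 by P4ha2 (r = 0.84), Cdc42ep4 and Tsc22d3, and Hadha by Copg1 (r = 0.92), Agpat4 and Sulf2. These correlations over 24 groups describe likeness only. Groups given water or sunitinib shared a dosing day, as did groups given F68 or sorafenib, and such a split enters the group means.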

How the data were processed

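The authors preprocessed the scans with the robust multichip average (RMA), which corrects background, quantile normalizes, summarizes by median polish and takes log2, and deposited log2 values for each probe set; 288 columns were used and 0 columns belonged to no sample. Of the probe sets, 20832 had 1 gene symbol in the platform annotation and 436 had several and were not used. Within each tissue the brightest probe set of a gene was kept, and genes with log2 above 6 on at least 4 arrays were tested (11317 in heart, 12310 in kidney, 11619 in liver). A liver and a kidney array, both of D5W then Sorafenib at 24 h (replicates 1 and 4), were left out. Each had the markers of the other tissue. Group means of all 24 groups were fitted per tissue with limma 3.58.1 (R 4.3.3; lmFit, eBayes), and p-values were adjusted by Benjamini-Hochberg over all tested genes. The rule for named genes took all members, at most 4 called genes per described pathway comparison, and the 3 most like genes of 4 members; other genes named beside small counts were chosen after their values were seen. Members and lists were chosen with earlier results of these data known. The fit was tested on simulated data. The number of arrays limits the precision. Alternatives were repeated quantile normalization, no filter, the mean of probe sets, both arrays kept, a separate model per time, each oral vehicle alone and each array left out. Nothing in the labels says beyond the rat how replicates were handled, so p-values measure the spread between these arrays.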

Additional observations from a re-analysis of the deposited data

Results flagged for a closer look

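In 5 of 116 groups of 4 rats that were examined (4.31%), 1 array lay far from the other 3 by Dixon's gap test. The groups examined were those of called comparisons and those holding a member's lowest or highest array in a tissue. Because some were picked for an extreme array, the usual chance rate of about 1 in 20 is no yardstick here. Cpt1a in kidney was 8.74 in replicate 1 of Oxaliplatin then Sunitinib at 1 h, on the array whose median stood apart. Pdk4 in kidney was 10.91 in replicate 3 of Oxaliplatin then F68 at 1 h, against 8.67 to 8.94 in the others. Angptl4 in liver was 12.48 in replicate 2 of Oxaliplatin then F68 at 6 h, against 10.95 to 11.18. Cpt1b was 12.23 in heart in replicate 3 of Oxaliplatin then water at 6 h, against 12.04 to 12.05, and 6.39 in liver in replicate 3 of D5W then F68 at 1 h, against 6.63 to 6.65.

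The effect of an oral drug differed between the infusion arms for 3 results, all in heart and all tested by limma's F test over the 3 times. They were the sunitinib effect on Cpt1b (adjusted p = 0.00938), the sunitinib effect on Hadha (adjusted p = 0.0152) and the sorafenib effect on Hadha (adjusted p = 0.00621). Both Hadha results involve the D5W groups with the largest Actb 3′ excess in heart. These were D5W then water at 24 h and D5W then Sorafenib at 6 h, with group medians of 0.75 and 0.68. The part of RNA quality in these results was not tested.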

How the results depend on the processing

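No paired analysis was possible because the labels give no replicate numbers that tie rats across groups. Of 23 called member results, 5 kept their call under every alternative run, 16 changed under an alternative other than leaving out an array, and 13 when 1 array was left out. The counts of called members that moved most in proportion were as follows, the causes not being tested. Moves smaller in proportion are not listed, such as the gain of Cpt1a and Angptl4 for liver sorafenib after D5W with both left-out arrays kept. With quantile normalization repeated within the tissue, heart 6 h against 1 h went from 1 to 3, kidney oxaliplatin from 1 to 2 and liver sorafenib after D5W from 4 to 1. With the mean of all probe sets of a gene, heart 6 h against 1 h gave 4, kidney 6 h against 1 h 1 in place of 0, heart sorafenib after oxaliplatin 0 in place of 1, and the change of the sorafenib effect 2 in place of 1 in heart and 1 in place of 0 in liver. With both left-out arrays kept, oxaliplatin gave 0 in kidney and 0 in liver, kidney F68 against water 0, kidney sorafenib after D5W 1 and the change of the sorafenib effect in liver 1. Those arrays had the markers of the other tissue, and the oxaliplatin and F68 comparisons do not hold them. With a separate model for each time, heart sorafenib after D5W gave 2, kidney oxaliplatin 3 and liver sunitinib after D5W 0. Oxaliplatin gave 0 in heart in rats given F68, 0 in kidney in rats given water, and 0 in liver in either. The direction reversed for heart Crot at 6 h against 1 h (0.17 with the mean of probe sets) and for liver Hadha with sorafenib at 24 h (0.086 with normalization repeated, 0.023 with the mean of probe sets).

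Leaving out 1 array at a time, the counts ran from 2 to 5 for sorafenib after D5W in heart and from 1 to 5 in liver, from 1 to 3 for 6 h against 1 h in heart and from 1 to 2 in liver, from 0 to 1 for sorafenib after oxaliplatin in heart and in liver, from 1 to 2 for oxaliplatin and from 1 to 3 for F68 against water in kidney, from 0 to 2 for sunitinib after oxaliplatin in kidney, and from 0 to 1 for sunitinib after D5W and for the change of the sorafenib effect in liver. For oxaliplatin they ran from 2 to 4 in heart and from 2 to 3 in liver. In heart they ran from 2 to 3 for sunitinib after D5W and from 3 to 4 for F68 against water.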
